A study of Homo sapiens with 38 samples.

Results

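Cells of 5 diffuse large B-cell lymphoma lines kept for 14 days with pracinostat were set directly against the same lines kept for 14 days with vorinostat, with no DMSO library in the contrast. Diffuse large B-cell lymphoma is an aggressive cancer of mature B cells. The comparison took every library labelled PRACINO or VORINO at 14 days that has a column of read counts, 10 of the 38 samples of the series. Each line, OCILY1, PFEIFFER, SUDHL4, TOLEDO and WSUDLCL2, gave 1 pracinostat library and 1 vorinostat library, so the line is the replicate and each line is 1 established culture. At 14 days each line also had solvent libraries titled DMSOP and DMSOV, and the same drugs were given for 6 h. No source used here gives the doses, so the drugs cannot be taken as matched in dose, and every difference below is between cultures as they were treated. This 1 pair of compounds was compared, at 2 times. The series lists another vorinostat sample of SUDHL4 at this time, for which no count column was used here.

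Histone deacetylases (HDACs) remove acetyl groups from histones and other proteins, and their inhibition leaves chromatin hyperacetylated, shifts the transcription of many genes and often stops cells before division. Pracinostat and vorinostat are both hydroxamic acids, which bind the zinc ion in the catalytic pocket of the zinc-dependent HDACs. They differ in the rest of the molecule: vorinostat joins its hydroxamate through a straight aliphatic chain to an anilide cap, whereas pracinostat carries an N-hydroxyacrylamide on a benzimidazole with a diethylaminoethyl side chain. The series title gives the purpose as characterising the anti-lymphoma activity of pracinostat.

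The libraries held 4707752 to 8331293 counts with pracinostat and 3188528 to 6969068 counts with vorinostat, the shallowest being the vorinostat libraries of SUDHL4 (3188528) and WSUDLCL2 (3416646). Levels are given as CPM, read counts scaled by the effective size of each library, and a count of 0 allows up to 0.365 to 1.02 CPM in these libraries, for counting error only. The 9 B-cell marker genes were all tested and summed to 6160 to 20100 CPM with pracinostat and 6240 to 19800 CPM with vorinostat. Of the myeloid markers 4 of 13 were in the table, summing to 0.78 to 19.5 CPM with pracinostat and 1.08 to 37.1 CPM with vorinostat, and FCN1 was at 0 in all 10 libraries. T-cell markers, 7 of 9 in the table, summed to 3.28 to 658 CPM with pracinostat and 2.17 to 665 CPM with vorinostat. Only 2 of these were high enough to be tested, CD5 was under 1 CPM in all 10 libraries, and CD2 and CD3G were not in the table. The T-cell sum, highest in PFEIFFER, thus came from members other than these 3. Plasma cell markers, 7 of 8 in the table, summed to 515 to 1650 CPM with pracinostat and 610 to 1730 CPM with vorinostat. Epithelial markers reached 103 and 93.4 CPM and fibroblast markers 80.6 and 61.9 CPM with pracinostat and vorinostat, all in PFEIFFER. In each of the 20 libraries of 14 days the most similar other library came from the same line.

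After 14 days the drugs gave profiles in which no gene differed strongly enough across the lines to be called by the test used throughout. With the line as block, edgeR's quasi-likelihood test called 0 of 12709 genes at an adjusted p under 0.05 (0.0% called), and the smallest adjusted p was 0.191. At an unadjusted p under 0.05 there were 1237 genes, 9.73% of those tested, of which 712 were higher with pracinostat (5.6%) and 525 were lower (4.13%). The median log2 difference over all genes was 0.012. The absence of calls does not show that the drugs act alike: the 95% interval of the difference lay within 2-fold for 10497 genes (82.6%) and within 1.5-fold for only 5267 genes (41.4%). The median half-width of the interval was 0.423 on the log2 scale. DESeq2 called 7 genes on the same counts, named with the alternatives in the closing section.

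Within single lines the drugs differed far more than this average shows, and most genes over 2-fold apart were so in 1 line only. Among 10552 genes with a mean of at least 5 CPM, WSUDLCL2 had 759 genes over 2-fold higher and 785 over 2-fold lower with pracinostat than with vorinostat, 14.6% in all. TOLEDO had 683 higher and 283 lower (9.15%), and SUDHL4 had 480 higher and 196 lower (6.41%). OCILY1 had 264 higher and 19 lower (2.68%), and PFEIFFER, the line in which the drugs lay closest, had 64 higher and 22 lower (0.815%). These are single libraries with no replicate check inside a line. The DMSOP and DMSOV libraries of a line, set against each other in the same way, differed over 2-fold in 4.19% of genes in WSUDLCL2, 1.11% in TOLEDO, 1.79% in SUDHL4, 0.843% in OCILY1 and 0.426% in PFEIFFER. The drug libraries thus lay further apart than the solvent libraries in every line, and WSUDLCL2 came highest in both. The share of depth and of the culture in these counts was not tested.

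**Figure D1:**
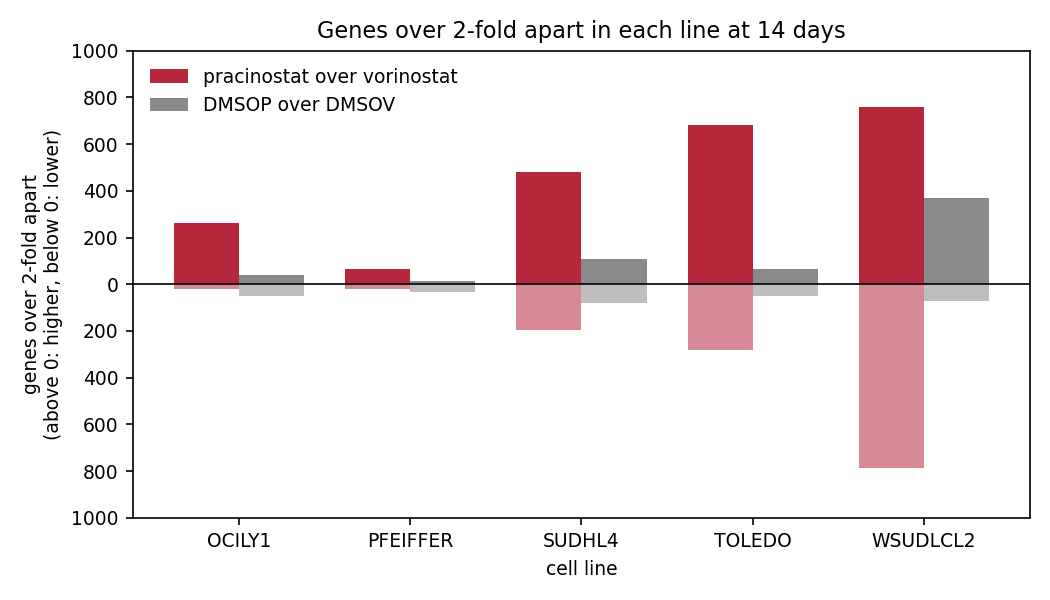
Number of genes (of 10552 with a mean of at least 5 CPM) over 2-fold apart in each line at 14 days, with those higher drawn above 0 and those lower drawn below 0; red bars are pracinostat over vorinostat and grey bars DMSOP over DMSOV. WSUDLCL2 had the highest drug bars, 759 higher and 785 lower, and PFEIFFER the lowest, 64 and 22.

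Most of these differences were seen in 1 line. Of 2769 genes over 2-fold apart in at least 1 line, 2103 passed in exactly 1 line. With pracinostat 344 genes were over 2-fold higher in 2 lines, 48 in 3 lines and 2 in 4 lines. Over 2-fold lower were 88 genes in 2 lines and 8 in 3 lines. None was over 2-fold higher, or lower, in all 5, where PFEIFFER had only 64 and 22 such genes to share. How many would recur by chance was not tested. Those higher in 4 lines were IL27RA, a subunit of the interleukin-27 receptor, and RYR1, a calcium release channel, which in TOLEDO ran the other way at under 1 CPM with either drug. With vorinostat IL27RA was no higher than the level of 3 counts in SUDHL4 (1.02 CPM) and TOLEDO (0.542 CPM), so its difference there is uncertain. In 236 genes the drugs differed over 2-fold in opposite directions in different lines. Across all 10552 genes the differences of SUDHL4 and TOLEDO were the most alike (Pearson r = 0.35) and those of SUDHL4 and WSUDLCL2 the least (r = -0.03), as descriptions over genes that share libraries. In all 5 lines 786 genes were higher (6.18% of those tested) and 570 were lower (4.49%).

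The genes with the smallest p in each direction are given by rule, and none of them was called. ZMIZ1, a coregulator of transcription factors (chromosome 10, 79069035 to 79316528, hg38), had 45.9, 46.5, 242, 42.0 and 133 CPM with pracinostat in OCILY1, PFEIFFER, SUDHL4, TOLEDO and WSUDLCL2, against 16.9, 26.6, 147, 18.4 and 44.5 CPM with vorinostat. Every line was higher with pracinostat, while the groups overlapped because the lines differ in level. The log2 difference was 1.11 (SE 0.17, 95% interval 0.74 to 1.49, adjusted p = 0.191), a 2.17-fold difference, for which DESeq2 gave an adjusted p of 0.000153. In OCILY1 the solvent libraries had only 0.747 CPM (DMSOP) and 0.628 CPM (DMSOV), so both drug libraries lay far above the solvent there, while in the other lines the vorinostat library lay below the solvent. DOCK8, an activator of the small GTPase CDC42 in lymphocytes (chromosome 9, 214854 to 465259), had 61.7, 119, 95.1, 54.8 and 212 CPM with pracinostat, against 36.1, 91.4, 49.9, 25.6 and 67.2 CPM with vorinostat, in the same order of lines. It too was higher in every line, by 0.94 on the log2 scale (SE 0.18, adjusted p = 0.488). IL27RA (chromosome 19, 14031748 to 14053216) had 22.5, 15.3, 2.19, 1.56 and 15.6 CPM with pracinostat, against 11.1, 7.25, 0.683, 0.542 and 3.68 CPM with vorinostat, a log2 difference of 1.34 (SE 0.26, adjusted p = 0.488). IL27RA was also higher with pracinostat at 6 h, where its log2 difference was 0.68 (unadjusted p = 0.00187). The DMSOP libraries were above the DMSOV libraries in IL27RA in all 5 lines, by a fitted 0.28 (SE 0.12, unadjusted p = 0.0351).

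SCIMP, an adaptor of antigen-presenting cells (chromosome 17, 5208961 to 5234860), had 58.4, 0, 7.58, 0.156 and 158 CPM with pracinostat, against 12.3, 0, 5.12, 0.181 and 39.0 CPM with vorinostat. Its log2 difference of 1.75 (SE 0.31, adjusted p = 0.488) rested on OCILY1 and WSUDLCL2. In those same lines the DMSOP libraries had 2.61 and 83.7 CPM of SCIMP, against 1.1 and 33.7 CPM in the DMSOV libraries, so the solvent sets differed in the same direction. H1F0, which encodes the linker histone H1.0 (chromosome 22, 37805093 to 37807436), had 49.3, 228, 0, 0.156 and 35.2 CPM with pracinostat, against 10.8, 147, 0, 0 and 7.67 CPM with vorinostat. It was above 1 CPM in 3 of the 5 lines, and its log2 difference was 1.59 (SE 0.31, adjusted p = 0.488).

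All 5 genes with the smallest p in the other direction were noncoding or pseudogene entries. MIR5195, a miRNA gene (chromosome 14, 106850885 to 106850999), had 4.38, 1.63, 11.2, 35.3 and 3.79 CPM with pracinostat, against 8.62, 2.28, 29.4, 120 and 12.0 CPM with vorinostat. Its log2 difference was -1.38 (SE 0.21, adjusted p = 0.191), lower in every line. Reads of a long RNA library over this locus do not measure the mature miRNA, and which transcript they came from was not tested. KCNQ1OT1, a long noncoding RNA antisense to KCNQ1 (chromosome 11, 2608328 to 2699994), had 5.24, 10.4, 56.6, 34.8 and 42.3 CPM with pracinostat, against 8.62, 15.2, 97.7, 57.0 and 63.5 CPM with vorinostat. The log2 differences by line ran only from -0.78 to -0.54, the narrowest spread of these 10 genes, around a fitted -0.69 (SE 0.15, adjusted p = 0.488), and at 6 h it was -0.85 (unadjusted p = 0.000997). The strand setting of the counting was not stated, so reads of KCNQ1OT1 and KCNQ1 cannot be told apart. MIR3142HG, the host transcript of MIR146A (chromosome 5, 160438594 to 160487426), had 4.02, 17.9, 19.1, 9.98 and 75.5 CPM with pracinostat, against 10.3, 32.6, 23.6, 19.3 and 113 CPM with vorinostat, a log2 difference of -0.80 (SE 0.18, adjusted p = 0.488). Between the solvent sets MIR3142HG differed the other way, by 0.97 (DMSOP over DMSOV, unadjusted p = 0.000117). AC245060.5, a long intergenic RNA on chromosome 22, and TMSB4XP4, a processed pseudogene inside SLC27A4 whose reads may belong to near-identical copies, had log2 differences of -0.85 (SE 0.19) and -1.22 (SE 0.26).

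**Figure D2:**
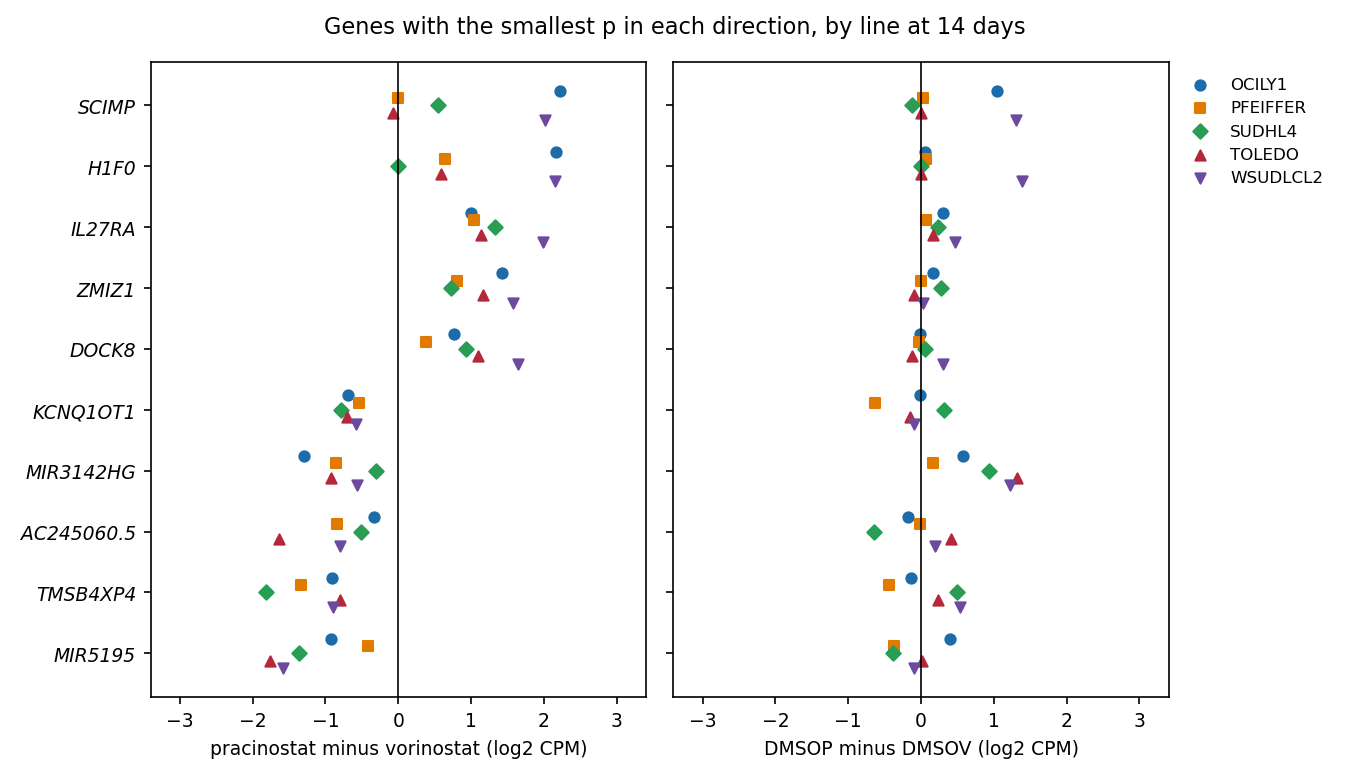
Difference in log2 CPM in each line at 14 days, pracinostat minus vorinostat at left and DMSOP minus DMSOV at right, for the 10 genes with the smallest p; each symbol is 1 line. ZMIZ1, DOCK8 and IL27RA lay right of 0 in all 5 lines at left, IL27RA by 0.07 to 0.47 at right too, while MIR3142HG lay left of 0 at left and right of 0 at right.

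Genes of G2 and mitosis, which build and run the spindle, were below the solvent level under both drugs in every line, and the lines split over which drug left them higher. All 30 of 30 members tested were below the mean of the DMSOP and DMSOV libraries, under pracinostat and under vorinostat alike, in each of the 5 lines. Their summed level with pracinostat was 2273, 1548, 1323, 4770 and 2382 CPM in OCILY1, PFEIFFER, SUDHL4, TOLEDO and WSUDLCL2, against 2563, 1123, 459, 1421 and 3222 CPM with vorinostat. The DMSOP libraries had 5078, 5190, 6709, 9082 and 6686 CPM and the DMSOV libraries 5204, 5376, 7261, 9745 and 6504 CPM. In SUDHL4 and TOLEDO all 30 members, and in PFEIFFER 29, stood in the order vorinostat, pracinostat, solvent from low to high. That order held for 3 members in OCILY1 and 6 in WSUDLCL2, where most stood lower with pracinostat. For comparison it held for 30.9% of all genes tested in SUDHL4, 29.9% in TOLEDO, 21.1% in PFEIFFER, 21.7% in OCILY1 and 19.1% in WSUDLCL2. The median difference of the list by line was 1.61 in SUDHL4, 1.65 in TOLEDO, 0.47 in PFEIFFER, -0.18 in OCILY1 and -0.50 in WSUDLCL2. In bulk RNA, fewer dividing cells and less of these transcripts per cell cannot be told apart.

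Over all lines, every one of the 30 had a positive log2 difference and 9 had an unadjusted p under 0.05 in that direction, with 0 in the other, against 5.6% and 4.13% of all genes. The median of the list was 0.54, against 0.01 over all genes. None was called. With all 20 libraries of 14 days in the fit, 2 of the 30 had an unadjusted p under 0.05 and the median was 0.39. Without TOLEDO 0 of the 30 had an unadjusted p under 0.05 and the median was 0.30, and without SUDHL4 2 did and it was 0.33. Without WSUDLCL2 21 did, with a median of 0.82, and without OCILY1 19, with a median of 0.78. MKI67, the proliferation antigen Ki-67, had 234, 146, 165, 497 and 343 CPM with pracinostat, against 322, 91.7, 37.6, 88.1 and 250 CPM with vorinostat. It was higher with pracinostat in 4 lines, WSUDLCL2 included, and lower in OCILY1, with a fitted log2 difference of 1.01 (SE 0.37, adjusted p = 0.488). TOP2A, the topoisomerase that untangles replicated chromosomes, had 407, 286, 123, 976 and 248 CPM with pracinostat, against 369, 218, 34.2, 311 and 317 CPM with vorinostat. PLK1, a kinase that drives mitotic entry, had 36.5, 35.3, 44.3, 76.4 and 70.0 CPM with pracinostat, against 51.6, 15.8, 9.9, 17.7 and 100 CPM with vorinostat. For PLK1 the 3 lines that were higher with pracinostat and the 2 that were lower gave a fitted 0.79 (SE 0.39, unadjusted p = 0.0663). AURKB, which corrects chromosome attachment, and CDK1, the kinase that triggers mitosis, were likewise lower with pracinostat in OCILY1 and WSUDLCL2, with fitted differences of 0.48 (SE 0.35) and 0.36 (SE 0.34). FOXM1, a transcription factor of the late cell cycle, had 0.87 (SE 0.33), and the kinesins KIF20A and KIF2C 0.87 (SE 0.31) and 0.82 (SE 0.29); KIF20A and FOXM1 overlap other genes on the opposite strand.

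**Figure D3:**
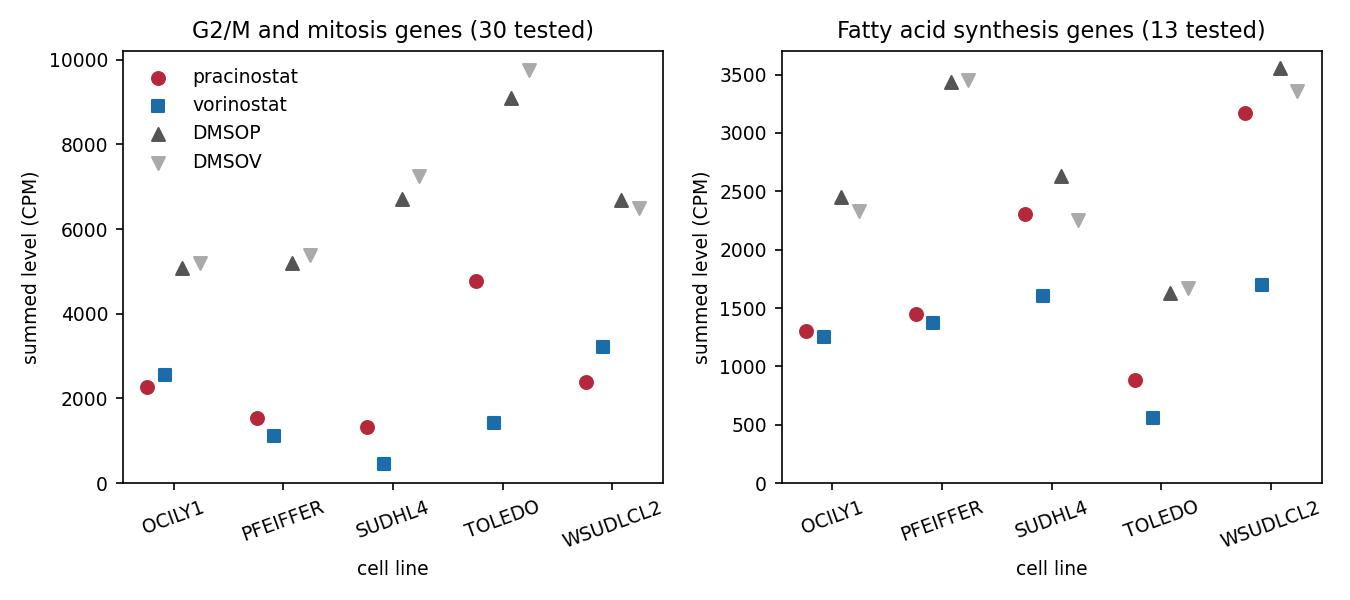
Summed level (CPM) of the tested G2/M genes (left) and fatty acid synthesis genes (right) in each line at 14 days; each symbol is 1 library, with pracinostat, vorinostat, DMSOP and DMSOV from left to right within a line. In TOLEDO the G2/M sum was 4770 with pracinostat and 1421 with vorinostat, and in WSUDLCL2 it was 2382 with pracinostat and 3222 with vorinostat.

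The G2/M genes stood on the same side within most lines, and the promoters of CCNB2, CENPF and TOP2A are printed to show the elements that such promoters commonly share. CCAAT boxes bind the factor NF-Y, and the cell cycle homology region, TTTGAA, is the element through which the DREAM and MuvB complexes act on late cell cycle genes. The windows are RefSeq sequences of GRCh38.p14, 250 bases before to 50 after the start, read 5′ to 3′ along the gene, with CCAAT and TTTGAA on either strand in capitals (ATTGG and TTCAAA are the same motifs on the other strand). The windows lie at chr15:59104896-59105195 on the plus strand for CCNB2 (cyclin B2), chr1:214602945-214603244 on the plus strand for CENPF (a kinetochore protein) and chr17:40417847-40418146 on the minus strand for TOP2A.
CCNB2: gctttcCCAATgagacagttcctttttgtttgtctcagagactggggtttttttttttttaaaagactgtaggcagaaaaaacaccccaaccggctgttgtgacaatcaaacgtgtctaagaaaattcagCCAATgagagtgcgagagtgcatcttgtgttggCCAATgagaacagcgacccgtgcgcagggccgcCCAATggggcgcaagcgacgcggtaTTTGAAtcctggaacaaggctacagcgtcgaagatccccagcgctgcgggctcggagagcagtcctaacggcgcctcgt
CENPF: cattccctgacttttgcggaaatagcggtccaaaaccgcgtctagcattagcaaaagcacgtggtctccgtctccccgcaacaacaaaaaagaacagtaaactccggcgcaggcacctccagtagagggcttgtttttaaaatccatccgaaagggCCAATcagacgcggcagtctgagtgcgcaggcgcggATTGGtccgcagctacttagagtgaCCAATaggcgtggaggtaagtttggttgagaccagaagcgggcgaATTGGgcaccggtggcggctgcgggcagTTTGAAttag
TOP2A: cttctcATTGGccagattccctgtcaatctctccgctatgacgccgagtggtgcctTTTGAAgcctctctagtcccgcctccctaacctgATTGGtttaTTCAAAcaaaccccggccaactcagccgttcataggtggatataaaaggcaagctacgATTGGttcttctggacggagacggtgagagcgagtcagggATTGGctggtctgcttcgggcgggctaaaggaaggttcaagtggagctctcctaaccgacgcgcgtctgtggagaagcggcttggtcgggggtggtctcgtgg
Each of the 3 windows held 4 CCAAT matches, and held 1, 1 and 2 TTTGAA matches, with no base in more than 1 motif. RefSeq promoters were found for 24 of the 30 tested members, of which 20 held CCAAT (83.3%), 16 held TTTGAA (66.7%) and 15 held both (62.5%). The windows of the members KIF2C, CENPE and CDC25C held neither. Only 1 window per gene was read, so motifs near another start of the same gene would not be seen. Among the promoters found for 9594 genes tested the shares were 37.4%, 9.77% and 4.18%, and among all 35116 RefSeq promoters they were 34.6%, 15.2% and 5.9%. A match is a description of the letters in this window, and says nothing of whether a factor bound there.

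G1/S and replication genes had the same order of the drugs as the G2/M genes in PFEIFFER, SUDHL4, TOLEDO and WSUDLCL2, while OCILY1 lay near 0. With pracinostat 29 of 30 members in SUDHL4, 29 in TOLEDO and 26 in PFEIFFER lay above the vorinostat level and below the mean solvent level, against 10 in OCILY1 and 1 in WSUDLCL2. The median difference by line was 1.02 in SUDHL4, 1.10 in TOLEDO, 0.34 in PFEIFFER, 0.07 in OCILY1 and -0.79 in WSUDLCL2, where the DMSOP library also lay below the DMSOV library (median -0.63). Over all lines 3 of 30 were higher at an unadjusted p under 0.05 and 0 lower, against 5.6% and 4.13% of all genes. The median was 0.30. Without TOLEDO 0 of the 30 had an unadjusted p under 0.05, with a median of 0.09, without SUDHL4 0, with 0.16, and without WSUDLCL2 20, with 0.50. Without OCILY1 6 did, with a median of 0.41, and without PFEIFFER 2, with 0.26. Genes of homologous recombination and the Fanconi pathway had a median of 0.39 over 22 tested, 3 of them higher at an unadjusted p under 0.05 and 0 lower, and the median was 0.15 without TOLEDO. By line their median was 0.59 in SUDHL4, 1.07 in TOLEDO and 0.34 in PFEIFFER, against -0.15 in OCILY1 and -0.31 in WSUDLCL2.

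Fatty acid synthesis genes were higher with pracinostat in SUDHL4, TOLEDO and WSUDLCL2 and close between the drugs in OCILY1 and PFEIFFER. Among the pathway lists with at least 5 genes tested they had the highest share of members at an unadjusted p under 0.05: 9 of 13 tested were higher and 1, LPIN1, was lower, against 5.6% and 4.13% of all genes, and 12 of 13 had a positive difference. None was called. The list's median was 0.53 over all lines and lay between 0.45 and 0.63 when any 1 line was left out. With SUDHL4 and WSUDLCL2 left out together, a choice made after seeing the data, the median was 0.35, and 1 member was higher and 1 lower at an unadjusted p under 0.05. Summed over the list, the level with pracinostat was 1302, 1448, 2306, 881 and 3172 CPM in OCILY1, PFEIFFER, SUDHL4, TOLEDO and WSUDLCL2, against 1253, 1371, 1604, 556 and 1694 CPM with vorinostat. The DMSOP libraries had 2455, 3435, 2635, 1633 and 3554 CPM and the DMSOV libraries 2334, 3452, 2251, 1670 and 3355 CPM. The vorinostat libraries were thus the lowest in every line, and in SUDHL4 and WSUDLCL2 the pracinostat library lay close to the solvent libraries. At 6 h the list's median was -0.02. Of the 13, 0 were higher and 2 lower at an unadjusted p under 0.05, against 6.66% and 6.42% of all genes then.

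SCD, which introduces the double bond of oleic acid (chromosome 10, 100347124 to 100364834), had 175, 212, 645, 56.8 and 966 CPM with pracinostat, against 178, 207, 173, 11.6 and 213 CPM with vorinostat. OCILY1 and PFEIFFER differed by -0.02 and 0.04 on the log2 scale, and SUDHL4, TOLEDO and WSUDLCL2 by 1.89, 2.27 and 2.18. The solvent libraries of SCD held 807, 1065, 802, 209 and 1026 CPM (DMSOP) and 700, 1066, 714, 285 and 1027 CPM (DMSOV), so both drugs lay below the solvent in every line. The fitted log2 difference was 1.24 (SE 0.36, 95% interval 0.45 to 2.02, adjusted p = 0.488). FADS2, the delta-6 desaturase of polyunsaturated fatty acids, had 155, 93.0, 124, 12.8 and 352 CPM with pracinostat, against 137, 74.0, 40.0, 5.78 and 100 CPM with vorinostat. It was higher in every line, by a fitted 0.98 (SE 0.25, adjusted p = 0.488); FADS2 shares bases with FEN1 on its own strand and with FADS1 on the other, so reads of these genes may be mixed. ACLY, which makes cytosolic acetyl-CoA, had 289, 310, 327, 270 and 359 CPM with pracinostat, against 252, 276, 213, 145 and 197 CPM with vorinostat. ACLY was higher in every line, and the groups touched only where the lowest pracinostat library (TOLEDO) lay below the highest vorinostat library (PFEIFFER). FASN, the fatty acid synthase, had 62.7, 171, 289, 176 and 301 CPM with pracinostat, against 86.1, 90.2, 111, 75.3 and 203 CPM with vorinostat, higher in 4 lines and lower in OCILY1. ACACA, the acetyl-CoA carboxylase that commits carbon to the pathway, FADS1, the delta-5 desaturase, and SREBF1, the transcription factor of fatty acid synthesis, had fitted differences of 0.59 (SE 0.19), 0.67 (SE 0.22) and 0.68 (SE 0.25). The elongase ELOVL6 and the acyl-CoA synthetase ACSL3 had 0.49 (SE 0.20) and 0.41 (SE 0.17). LPIN1, a phosphatidate phosphatase, had -0.44 (SE 0.19).

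Cholesterol synthesis genes showed the same direction more weakly, with a median of 0.29. Of 22 tested 5 were higher at an unadjusted p under 0.05 and 0 lower, against 5.6% and 4.13% of all genes. Among the 5 higher was HMGCS1, which condenses acetyl units early in the route. DHCR7, the last enzyme of the route, and IDI1, an isomerase of the isoprenoid steps, were also among the 5. HMGCS1 had 140, 121, 219, 64.4 and 252 CPM with pracinostat, against 110, 146, 120, 22.2 and 145 CPM with vorinostat. It was higher with pracinostat in 4 lines, most in TOLEDO (log2 1.52), and lower in PFEIFFER (-0.27), with a fitted 0.62 (SE 0.21, adjusted p = 0.488). DHCR7 had a fitted 0.59 (SE 0.20) and IDI1 0.29 (SE 0.13), both higher in every line, with the smallest difference in OCILY1 for DHCR7 and in PFEIFFER for IDI1. The list's median was 0.09, with 0 members at an unadjusted p under 0.05, when SUDHL4 and WSUDLCL2 were left out together. The promoter of SCD is printed because SCD had the largest fitted difference of the fatty acid synthesis genes; it lies at chr10:100346983-100347282 on the plus strand, in the same kind of window and with the same capitals.
SCD: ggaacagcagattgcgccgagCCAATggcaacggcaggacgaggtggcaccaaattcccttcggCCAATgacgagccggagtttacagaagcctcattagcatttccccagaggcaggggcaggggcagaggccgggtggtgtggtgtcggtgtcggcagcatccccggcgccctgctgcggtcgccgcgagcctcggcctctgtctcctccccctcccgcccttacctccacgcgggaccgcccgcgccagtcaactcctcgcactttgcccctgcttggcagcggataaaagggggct
It held 2 CCAAT and no TTTGAA matches. Of the promoters found, 5 of 12 fatty acid synthesis genes (41.7%) and 15 of 17 cholesterol synthesis genes (88.2%) held CCAAT, against the 37.4% of genes tested. The sterol regulatory element spelled TCACNCCAC (either strand, N any base) was in 0 of 12 and 1 of 17 (5.88%), against 1.2% of genes tested.

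**Figure D4:**
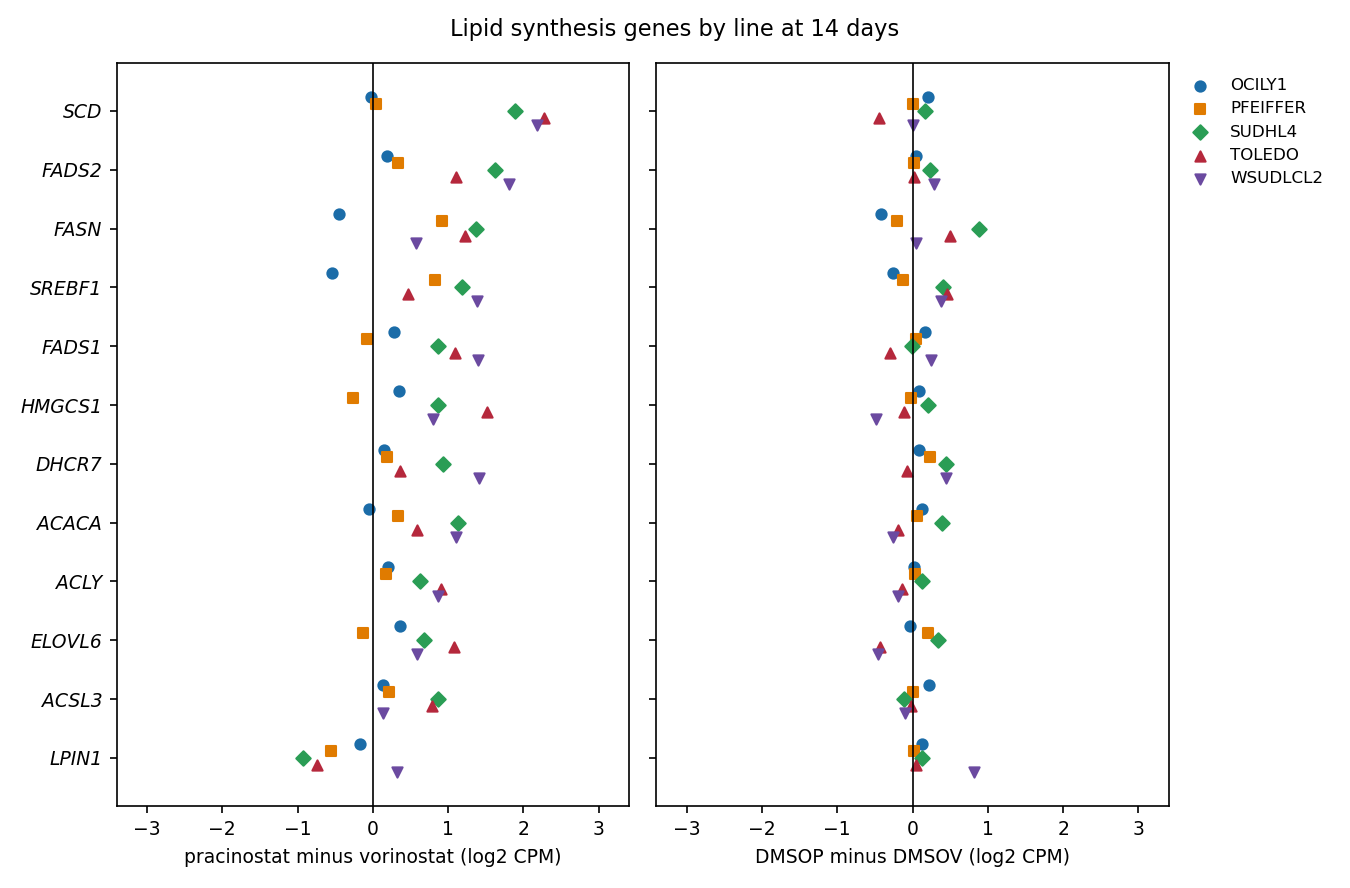
Difference in log2 CPM in each line at 14 days, pracinostat minus vorinostat at left and DMSOP minus DMSOV at right, for 12 lipid synthesis genes, of which all but SCD were chosen after their values were seen; each symbol is 1 line. For SCD the values of SUDHL4, TOLEDO and WSUDLCL2 at left ran from 1.89 to 2.27, while OCILY1 and PFEIFFER lay near 0.

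Targets of NF-kB, the transcription factor of B-cell activation, were on the low side with pracinostat, with a median of -0.31. Of 13 tested 4 were lower at an unadjusted p under 0.05 and 0 higher, against 4.13% and 5.6% of all genes. TNF, an inflammatory cytokine, had 6.58, 11.9, 17.1, 0.78 and 59.5 CPM with pracinostat, against 7.96, 18.2, 29.4, 2.35 and 274 CPM with vorinostat. TNF was lower in every line, most in WSUDLCL2, with a fitted -1.09 (SE 0.26, adjusted p = 0.488). TNFAIP3, the deubiquitinase that ends the signal, had -0.73 (SE 0.20), BIRC3, an inhibitor of apoptosis, -0.50 (SE 0.23) and NFKB2, a subunit of the noncanonical arm, -0.42 (SE 0.18). Between the solvent sets NFKB2 differed the other way, by 0.31 (DMSOP over DMSOV, unadjusted p = 0.011). In WSUDLCL2 the list's median was -0.71 for the drugs and 0.59 for DMSOP over DMSOV. With all 20 libraries of 14 days in the fit, 0 of the 13 had an unadjusted p under 0.05, and without WSUDLCL2 2 did, with a median of -0.18.

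Of 23 tested p53 target genes 21 had a negative fitted difference, against 6145 of all 12709 genes tested. By line, 13 of the 23 were higher with pracinostat in OCILY1, 4 in PFEIFFER, 7 in SUDHL4, 5 in TOLEDO and 10 in WSUDLCL2. The medians of these lines were 0.10, -0.19, -0.22, -0.53 and -0.09. Of the 23, 3 were lower at an unadjusted p under 0.05 and 0 higher, against 4.13% and 5.6% of all genes. The median was -0.26. The 3 lower were GADD45A, a stress sensor (-0.55, SE 0.19), ZMAT3, an RNA-binding regulator of growth (-0.39, SE 0.16), and PMAIP1, the death protein NOXA (-0.45, SE 0.18). Without TOLEDO 0 of the 23 had an unadjusted p under 0.05 and the median was -0.12. CDKN1A, the p21 inhibitor of cell cycle kinases, had 156, 7.89, 20.0, 76.3 and 70.6 CPM with pracinostat, against 126, 8.68, 24.9, 246 and 108 CPM with vorinostat. Only TOLEDO differed over 2-fold (log2 -1.68), and the fitted difference was -0.53 (SE 0.25, unadjusted p = 0.0576). All 6 tested CDK inhibitor genes had a negative difference, 0 of them at an unadjusted p under 0.05, and the DMSOP libraries lay above the DMSOV libraries by a list median of 0.32.

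Of 10 tested HDAC genes, which encode the enzyme family that both drugs inhibit, 0 had an unadjusted p under 0.05 in either direction. The median of the list was -0.11. That median had no stable sign, at 0.02 without SUDHL4 and 0.01 in limma. HDAC1, a nuclear class I enzyme, had 803, 737, 482, 182 and 576 CPM with pracinostat, against 714, 694, 478, 188 and 534 CPM with vorinostat, a log2 difference of 0.04 (95% interval -0.26 to 0.35). HDAC2 (-0.15, interval -0.52 to 0.21), HDAC3 (-0.21, -0.52 to 0.10), HDAC6 (0.13, -0.21 to 0.47), HDAC7 (-0.07, -0.40 to 0.27) and HDAC8 (0.08, -0.28 to 0.44) also had intervals within 1.5-fold. Those of HDAC4 (0.47, -0.07 to 1.01), HDAC5 (-0.22, -0.65 to 0.21), HDAC11 (-0.49, -1.21 to 0.23) and HDAC9 (-0.31, -1.22 to 0.60) were wider. HDAC9 had 64.4, 0.501, 16.0, 50.1 and 94.9 CPM with pracinostat, against 89.9, 0, 73.8, 41.0 and 54.9 CPM with vorinostat, so SUDHL4 and WSUDLCL2 ran in opposite directions. HDAC10 was too low to be tested, at 0.752 to 2.31 CPM with pracinostat and 0.921 to 1.99 CPM with vorinostat. Among the opposing histone acetyltransferases 2 of 10 were higher at an unadjusted p under 0.05 and 0 lower, against 5.6% and 4.13% of all genes. The 2 were KAT6B (0.79, SE 0.22) and CREBBP (0.56, SE 0.21), both most in TOLEDO and WSUDLCL2. EZH2, the methyltransferase of Polycomb complex PRC2, had 0.24 (SE 0.16, interval -0.11 to 0.59).

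Among genes of B-cell fate and of lymphoma survival, BCL2 and BCL6 differed by 2-fold in 1 line. BCL2, the anti-apoptotic oncoprotein, had 480, 163, 246, 643 and 476 CPM with pracinostat, against 525, 186, 226, 631 and 229 CPM with vorinostat. BCL6, the repressor of the germinal centre programme, had 331, 961, 407, 14.4 and 464 CPM with pracinostat, against 498, 962, 400, 18.4 and 224 CPM with vorinostat. Both were about 2-fold higher with pracinostat in WSUDLCL2 (log2 1.06 and 1.05) and not in the other lines, and the germinal centre list had a median of 0.86 there and between -0.09 and 0.10 elsewhere. In WSUDLCL2 the DMSOP library was also above the DMSOV library, by 0.76 for BCL2, 0.32 for BCL6 and a list median of 0.35. Fitted over the lines, the differences were 0.15 (interval -0.27 to 0.57) for BCL2, 0.01 (-0.47 to 0.49) for BCL6, 0.03 (-0.35 to 0.41) for MYC, the growth oncogene, 0.04 (-0.28 to 0.37) for MCL1, a survival protein, and 0.29 (-0.07 to 0.66) for BCL2L11, the death protein BIM. TNFRSF13C, the BAFF receptor that keeps B cells alive, had 132, 58.1, 173, 49.6 and 247 CPM with pracinostat, against 97.7, 34.0, 126, 25.3 and 83.5 CPM with vorinostat. It was higher in every line, by a fitted 0.81 (SE 0.18, adjusted p = 0.488), and the DMSOP libraries were higher than the DMSOV libraries by 0.43 (unadjusted p = 0.00284).

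CCR7, the receptor that brings lymphocytes to lymph nodes, had 13.0, 177, 2.48, 346 and 31.0 CPM with pracinostat, against 1.99, 363, 4.78, 823 and 73.4 CPM with vorinostat. OCILY1 was higher by 2.54 on the log2 scale and the other lines were lower by differences of -1.25 to -0.87, so the fitted -0.63 (SE 0.43) describes no line. In WSUDLCL2 the solvent libraries differed in CCR7 by 2.58 (DMSOP over DMSOV). CD69, an early activation marker, had 0.487, 0.501, 0.292, 82.8 and 4.01 CPM with pracinostat, against 0.166, 1.71, 5.46, 413 and 1.53 CPM with vorinostat; the fitted difference was -1.68 (SE 0.56, unadjusted p = 0.012), and only TOLEDO was well above the counting floor under both drugs. FCER2, the low-affinity IgE receptor CD23, ran from -1.84 in WSUDLCL2 to 1.73 in OCILY1. VIM, the filament protein vimentin, was counted mainly in TOLEDO (148 CPM with pracinostat, 275 CPM with vorinostat) and WSUDLCL2 (45.0 CPM with pracinostat, 93.0 CPM with vorinostat), with a fitted -0.89 (SE 0.21, adjusted p = 0.488).

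MHC class II genes, which present antigen to helper T cells, had 0 of 16 tested at an unadjusted p under 0.05 and a median of -0.17, with TOLEDO at -0.83. HLA-DMA, which loads peptides, had 212, 1011, 316, 175 and 639 CPM with pracinostat, against 188, 1338, 403, 493 and 726 CPM with vorinostat, a fitted -0.46 (interval -0.93 to 0.00). CIITA, the master activator of the class, had -0.12 (interval -0.62 to 0.39). ABCB1, the efflux pump P-glycoprotein, had 0.45 (interval -0.05 to 0.94), TXNIP, a regulator of glucose uptake, -0.22 (-0.67 to 0.23) and XPO1, the main nuclear exporter, -0.03 (-0.39 to 0.33). TERT, the catalytic subunit of telomerase, was too low to be tested and had 0.437 to 10.8 CPM with pracinostat and 0 to 2.17 CPM with vorinostat. MT-ND1, a mitochondrially encoded subunit of complex I, had -0.07 (interval -0.39 to 0.26). Cytosolic ribosomal protein genes had a negative difference in 39 of 40, against 6145 of all 12709 genes tested. Their median was -0.22, with TOLEDO at -0.69 and WSUDLCL2 at 0.11, and 1 member had an unadjusted p under 0.05.

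**Figure D5:**
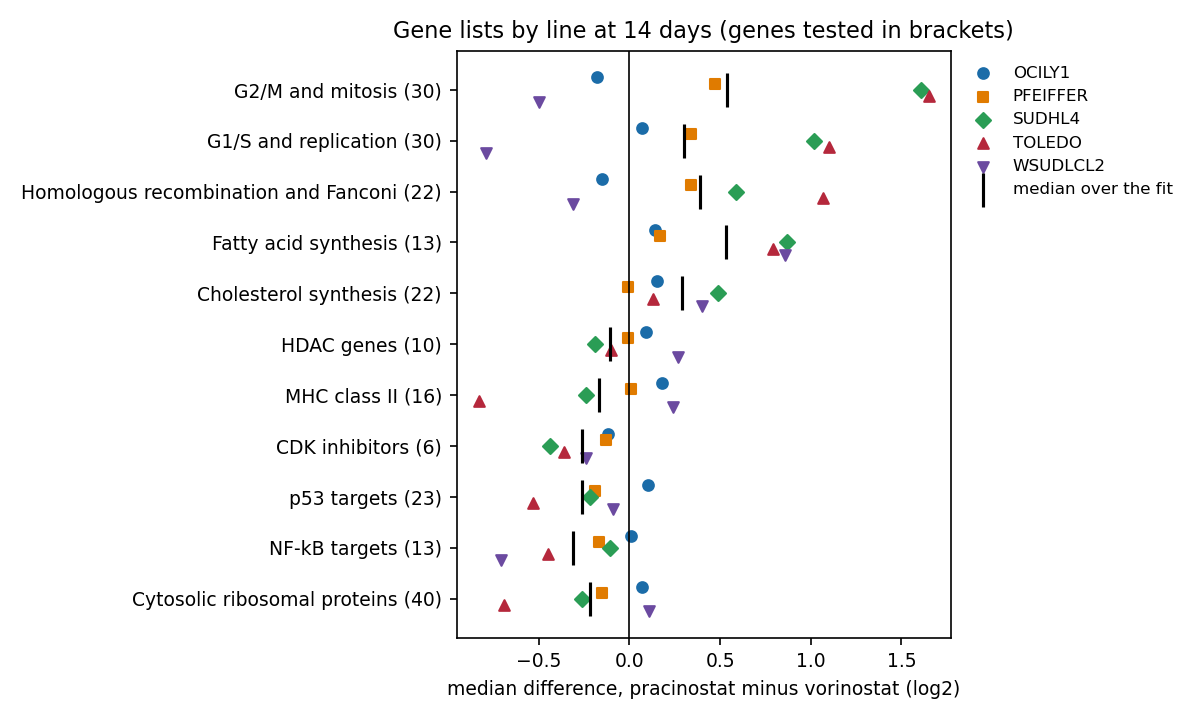
Median difference (log2, pracinostat minus vorinostat) of gene lists in each line at 14 days, with the number of genes tested in brackets; each symbol is 1 line and the black bar is the median over the fitted genes. For G2/M genes SUDHL4 and TOLEDO lay at 1.61 and 1.65 and WSUDLCL2 at -0.50, while for fatty acid synthesis all 5 lines lay above 0.

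The share of counts from mitochondrially encoded genes was 17.0, 11.1, 14.9, 14.7 and 14.1% with pracinostat, against 16.5, 10.5, 17.5, 17.1 and 12.5% with vorinostat. The mean difference was -0.46 percentage points (SD 1.92, n = 5; exact paired permutation test, two-sided, p = 0.625, where 5 lines allow no p below 0.0625). The 100 highest genes took 32.5, 29.2, 35.5, 34.7 and 34.0% of counts with pracinostat, against 32.4, 29.7, 39.7, 44.9 and 31.7% with vorinostat, so TOLEDO stood apart. The part of this in the values of TOLEDO was not tested.

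The libraries of each drug share their letter with a solvent set, and at 14 days the column names of the deposited log2 table number the vorinostat and DMSOV libraries in one run and the pracinostat and DMSOP libraries in the next. What each set shares, such as culture or library preparation, and the drug cannot be told apart. The solvent sets set directly against each other had 0 of 11827 genes called and 827 at an unadjusted p under 0.05 (6.99%). The smallest p belonged, for genes higher in DMSOP, to SNHG8, RPS29, TTYH3, DDIT4 and MIR3142HG, and for genes lower, to MT-TP, NUP35, KIF20B, ATG3 and POLA1. When the solvent difference of each line was taken off the drug difference, 0 of 14037 genes were called and 551 had an unadjusted p under 0.05 (3.93%). The smallest p there belonged to ALG13, ZBED3, LAMP3, KAT14 and DIS3L, which were higher, and to CD63, ANKRD12, ZC3H12A, ZFP36 and TMSB4XP4, which were lower. The mitochondrial share was lower in DMSOP than in DMSOV in all 5 lines, by a mean of -1.27 percentage points (SD 0.69, n = 5; exact paired permutation test, two-sided, p = 0.0625, the smallest that 5 lines allow).

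At 6 h the same pair of drugs in the same lines also gave no called gene: 0 of 12039, with 1575 at an unadjusted p under 0.05 (13.1%), 802 higher (6.66%) and 773 lower (6.42%), and a smallest adjusted p of 0.0955. DESeq2 called 45 genes at 6 h, and edgeR called 85 without WSUDLCL2. The smallest p belonged to MED18, RPL41P1, ZNF678, MGAT3 and KEAP1, which were higher with pracinostat, and to NXF1, MXD1, SLC12A2, ZSWIM6 and TP53INP1, which were lower. None of these 10 was among the 10 named at 14 days, but lists of 10 from 12039 genes would rarely share any by chance. The lack of overlap therefore does not compare the times. MED18, a subunit of the Mediator complex, differed by 1.12 at 6 h (SE 0.16, adjusted p = 0.0955) and by 0.20 at 14 days (SE 0.18). G2/M genes at 6 h had 12 of 30 higher at an unadjusted p under 0.05, 0 lower and a median of 0.32. By line their median at 6 h was 0.36 in OCILY1, -0.36 in PFEIFFER, 0.89 in SUDHL4, 0.09 in TOLEDO and 0.64 in WSUDLCL2, so PFEIFFER, OCILY1 and WSUDLCL2 stood on the other side of 0 at 14 days.

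The change of the drug difference between 14 days and 6 h was called for 1 of 13935 genes (0.00718%), while 1006 had an unadjusted p under 0.05 (7.22%). It was HTR3A, a subunit of the serotonin-gated ion channel (chromosome 11, 113974881 to 113990313), with 3.34 on the log2 scale (SE 0.41, adjusted p = 0.0272). HTR3A was counted well in 2 lines: at 14 days it had 179 CPM with pracinostat and 29.7 CPM with vorinostat in SUDHL4, and 58.2 CPM with pracinostat and 10.1 CPM with vorinostat in WSUDLCL2. At 6 h it had 43.5 CPM with pracinostat and 98.8 CPM with vorinostat in SUDHL4, and 19.5 CPM with pracinostat and 34.8 CPM with vorinostat in WSUDLCL2. The drugs thus stood in opposite orders at the times in both lines, while OCILY1, PFEIFFER and TOLEDO had at most 1.34 CPM in any of these libraries. Without SUDHL4 the adjusted p was 0.778, without TOLEDO 0.0941 and without WSUDLCL2 0.0598, so the call was lost, while the log2 values were 2.79, 3.34 and 3.45. The call was also lost in DESeq2 (log2 2.69, adjusted p = 0.52) and in edgeR with library totals (log2 3.38, adjusted p = 0.0504). The next smallest p belonged to ZMIZ1, H1F0, PSAT1, SCARB1 and ATRN, whose difference was higher at 14 days, and to MIR5195, RPL41P1, MED18, RPL6P27 and AC006511.3, whose difference was lower. PSAT1, an enzyme of serine synthesis, differed by 0.67 at 14 days (SE 0.15) and by -0.27 at 6 h, and SCARB1, a receptor for high-density lipoprotein, by 0.54 (SE 0.15) at 14 days and -0.31 at 6 h.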

How the data were processed

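RNA of 37 libraries of lymphoma lines was analysed as 2 tables. The deposited table of counts holds whole reads per gene, and the authors' second deposited table holds log2 CPM; the submitters' processing notes name STAR, edgeR and hg38 without versions. Per the labels' protocols, RNA was taken with Trizol and made into TruSeq libraries. The log2 values were recomputed from the counts with a largest difference of 4.99e-06, and 0 columns were left unused.

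Counts were normalised by TMM and tested in edgeR 4.0.16 (R 4.3.3) by the quasi-likelihood test with the cell line as block, after filterByExpr (minimum count 10, minimum total 15). Adjusted p-values are Benjamini-Hochberg over all genes tested, called under 0.05. Same-line libraries form the pairs, since both come from 1 cell line. Log2 CPM used a prior count of 2. DESeq2 1.42.0 and limma 3.58.1 were alternatives. Nothing in the labels says that libraries came from separate cultures, so p-values measure the spread between lines. Gene positions and types came from GENCODE 29, matched for 17859 of 18011 genes. The fit of the drug comparison at 14 days was tested on simulated data.

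Other alternatives were library totals or RLE factors in place of TMM, other filters, no block, all 20 libraries of 14 days, a 1.5-fold threshold and leaving out lines. The members and lists were chosen with earlier results of these data known. By rule the text names the 5 genes with the smallest p in each direction where none was called, called genes, and a fixed set (HDAC genes, CDKN1A, MYC, BCL2, BCL6, MCL1, BCL2L11, EZH2, MKI67, TERT, HLA-DMA, CIITA, CCR7, FCER2, CD69, ABCB1, MT-ND1, XPO1, TXNIP, SCD); the other genes named within lists were chosen after their values were seen. DMSOP and DMSOV are read from the titles as the solvent sets of pracinostat and vorinostat. Some genes of the cholesterol list are counted in it and not reported singly here.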

Additional observations from a re-analysis of the deposited data

Results flagged for a closer look

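Of 131 differences looked at over the 5 lines, 7 had 1 line far from the others. Chance alone gives about 1 in 20, so the 7 are about as many as chance gives. All are pracinostat minus vorinostat at 14 days in log2 CPM. BCL2 stood at 1.06 in WSUDLCL2, against -0.19 to 0.12 in the other lines. CCR7 stood at 2.54 in OCILY1, against -1.25 to -0.87. NFKB2 stood at 0.35 in PFEIFFER, against -0.75 to -0.49. GADD45A stood at -1.25 in TOLEDO, against -0.47 to -0.20. RYR1 stood at -1.73 in TOLEDO, against 1.18 to 2.09, with TOLEDO under 1 CPM with both drugs. The median of the germinal centre genes stood at 0.86 in WSUDLCL2, against -0.09 to 0.10. The median of Notch pathway genes stood at 0.35 in SUDHL4, against -0.05 to 0.04.

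The drug difference of HTR3A at 14 days exceeded that at 6 h by 3.34 on the log2 scale, tested as the interaction of drug and time (edgeR, adjusted p = 0.0272). It was above 2 CPM only in SUDHL4 and WSUDLCL2.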

How the results depend on the processing

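For pracinostat against vorinostat at 14 days, 0 genes were called by edgeR; DESeq2 called 7 (ZMIZ1, DOCK8, H1F0, TNS3 and NYNRIN higher, MIR5195 and MALAT1 lower), no filter on low counts gave 3 (ZMIZ1, MIR5195 and HTR3A), leaving out 1 line gave 0 to 1 (HTR3A, without OCILY1), and the other alternatives gave 0. With no replicate block for the line, 0 genes were called and 39 had an unadjusted p under 0.05. At 6 h DESeq2 called 45, no filter 12, and leaving out 1 line 0 to 85. For the change between the times, where 1 gene (HTR3A) was called, library totals gave 0, DESeq2 6, no replicate block 0 and leaving out 1 line 0 to 2. HTR3A was not among the 6 of DESeq2, which were PSAT1, ZMIZ1, ATRN, H1F0, RPL41P1 and MIR5195. The solvent sets, and the drug difference beyond them, had 0 calls under every alternative run.

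The difference in mitochondrial share of -0.46 points ran from -0.97 to 0.07 with 1 line left out (0.07 without SUDHL4, 0.04 without TOLEDO). Of 122 named genes and list medians, 88 kept their direction and side of the threshold under every alternative run, and 10 genes and 1 list median changed direction, none of the genes called. The median of the HDAC genes, -0.11, ran from -0.14 to 0.02 with 1 line left out and was 0.01 in limma. With 1 line left out, XPO1 ran from -0.13 to 0.12, HDAC9 from -0.71 to 0.24, MYC from -0.09 to 0.17, FCER2 from -0.44 to 0.54, CIITA from -0.30 to 0.14, HDAC2 from -0.24 to 0.02, BCL2 from -0.08 to 0.23, BCL6 from -0.26 to 0.18 and MCL1 from -0.04 to 0.13. With SUDHL4 and WSUDLCL2 left out together, an alternative chosen after seeing the data, MYC stood at -0.07, BCL2 at -0.12, BCL6 at -0.34, MCL1 at -0.11 and XPO1 at 0.11. With no replicate block MYC stood at -0.05, XPO1 at 0.01 and CDK1 at -0.01. With 20 libraries BCL6 stood at -0.07 and FCER2 at 0.00, in limma HDAC9 at 0.44 and FCER2 at -0.04, in DESeq2 HDAC9 at 0.00 and with library totals XPO1 at 0.03. The causes were not tested. Depth limited the low genes: 3 counts equalled 0.365 to 1.02 CPM.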

Other observations

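Heat shock protein genes had a median difference of -0.95 in WSUDLCL2, with pracinostat lower, and 0.46 in SUDHL4, with pracinostat higher; between DMSOP and DMSOV the same list had -0.52 in WSUDLCL2 and 0.12 in SUDHL4. Genes of MYC and ribosome biogenesis split in the same way, with 0.56 in SUDHL4 and -0.68 in WSUDLCL2, where DMSOP over DMSOV gave -0.56. The 4 metallothionein genes tested, which bind zinc and other metals, had a median of -1.68 in WSUDLCL2 and -0.15 to 0.27 in the other lines. Plasma cell genes had a median of -0.60 in TOLEDO and -0.12 to 0.14 in the other lines. In each of these lists at most 2 genes had an unadjusted p under 0.05 over the lines, and none was called.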
